A study of Mus musculus with 53 samples.

Results

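The oncofetal RNA-binding and HMGA genes were followed across all 53 arrays of the series, through every probe set of the expression array annotated to them. The list held 7 genes, Lin28a, Lin28b, Hmga1, Hmga2, Igf2bp1, Igf2bp2 and Igf2bp3, chosen by gene symbol. Of these, 4 genes had 14 probe sets of their own among the 45141 on the array, which named 17097 genes with a probe set of one symbol: 2 for Lin28a and 4 each for Hmga2, Igf2bp1 and Igf2bp3. A further 2 probe sets, 1433731_PM_at and 1433732_PM_x_at, list Igf2bp3 together with D030074P21Rik and are described apart. No probe set was named here for Lin28b, Hmga1 or Igf2bp2, and these 3 genes have no values below.

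The arrays covered 9 groups of material labelled as mouse. Embryonic mesenchymal cells (eMCs), dissociated from the limb soft parts of late-gestation BALB/c embryos, carried either an empty retrovirus (4 arrays) or human SS18-SSX1 in the same vector (4 arrays), each examined 48 h after transduction; SS18-SSX1 is the fusion oncoprotein of synovial sarcoma. SS tumors (12) grew subcutaneously in nude mice, which lack T cells, from eMCs carrying SS18-SSX1 with GFP. SS214 tumors (13) grew from eMCs carrying SS18-SSX1 with miR-214 in place of GFP. The study reports that some SS tumors had retroviral insertions in the Dnm3 locus and raised miR-214, to differing degrees. SS tumors 18, 19 and 23 here bear the numbers of those tumors. The SS group is thus not a group uniformly without raised miR-214. The mouse synovial sarcoma cell lines SS40 and SS64 were profiled with miR-214 introduced (4 arrays each) and with the control labelled NC (4 arrays each). The labels name SS64, which is followed here, whereas the study's text gives its second line another number. A mixture of normal tissues (4 arrays) served as the reference; the labels give it as mouse, which is followed here, whereas the study's methods call it human, so each difference from the mix rests on the labels. All groups except the tissue mix and the empty-vector cells carried SS18-SSX1. Nothing in the labels shows that the 4 arrays of a cell or mix group came from separate cultures or animals, so their p-values measure the spread between those arrays, which may be technical.

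Lin28a and Lin28b are RNA-binding proteins of early embryos and stem cells that block the maturation of let-7 microRNAs. The let-7 family in turn represses a set of fetal messenger RNAs, among them those of the chromatin protein Hmga2 and of the Igf2bp proteins, and it accumulates as tissues differentiate. Hmga1 and Hmga2 bend AT-rich DNA and shape transcription in embryonic and tumor cells, whereas Igf2bp1, Igf2bp2 and Igf2bp3 bind messenger RNAs such as those of Igf2, Cd44 and Actb and control their stability and localization.

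The let-7 family was not measured on these arrays. Its sequences are shown because they define the pathway: 11 mature mouse names in RefSeq (build GRCm38.p6) share the seed GAGGUAG (bases 2 to 8, in capitals), including miR-98, whereas let-7j carries another seed. miR-214, the microRNA of the SS214 vector and of the introduced lines, has a seed unlike that of let-7 on either arm. The sequences are read 5′ to 3′.
mmu-let-7a-5p (chr13:48538239-48538260, minus strand): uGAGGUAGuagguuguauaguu
mmu-let-7d-5p (chr13:48536078-48536099, minus strand): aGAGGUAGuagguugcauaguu
mmu-miR-98-5p (chrX:151913229-151913250, plus strand): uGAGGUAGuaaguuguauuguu
mmu-let-7j (chr3:140028281-140028304, plus strand): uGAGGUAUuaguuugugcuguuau
mmu-miR-214-3p (chr1:162223438-162223459, plus strand): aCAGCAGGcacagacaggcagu
mmu-miR-214-5p (chr1:162223397-162223418, plus strand): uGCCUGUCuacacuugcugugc

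Hmga2 and Igf2bp3 were the members whose levels separated the groups most widely, each in its own pattern, and the 250 bases before their RefSeq start sites (GRCm38.p6, gene strand) are given for reference. Capitals mark TCTCTC (or GAGAGA, its other strand) in the Hmga2 window and CACGTG in the Igf2bp3 window.
Hmga2 (chr10:120476470-120476719, minus strand): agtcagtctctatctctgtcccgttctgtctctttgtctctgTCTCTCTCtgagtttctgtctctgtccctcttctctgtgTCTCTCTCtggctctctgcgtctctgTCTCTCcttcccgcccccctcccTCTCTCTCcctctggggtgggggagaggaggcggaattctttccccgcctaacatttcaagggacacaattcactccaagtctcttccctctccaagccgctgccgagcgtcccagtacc
Igf2bp3 (chr6:49214955-49215204, minus strand): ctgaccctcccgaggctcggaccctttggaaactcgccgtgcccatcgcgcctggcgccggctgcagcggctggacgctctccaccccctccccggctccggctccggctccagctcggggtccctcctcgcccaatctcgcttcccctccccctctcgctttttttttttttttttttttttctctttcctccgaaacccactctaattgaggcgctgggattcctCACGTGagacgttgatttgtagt
The Hmga2 window held 7 matches to TCTCTC, overlapping ones counted each, a word present in 20.2% of the 32817 mouse windows of this length. The Igf2bp3 window held 1 CACGTG, present in 6.02% of windows, and 21 CG pairs, more than in 83.7% of windows, against 8 in the Hmga2 window and a median of 6. These matches describe the letters only.

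Values are given as log2 of the deposited intensity, with intensities below 11.7 (log2 3.55, called the floor) raised to it. A probe set was compared between groups where at least 4 of the arrays compared lay above the floor, and it was called where the limma test gave an adjusted p under 0.05 and the difference exceeded 2-fold. Each gene is represented by its brightest probe set. RNA integrity was read from Gapdh, as its 3′ control probe set over its 5′ one on the log2 scale (the Gapdh ratio), which ran from 0.33 to 1.43 in the SS tumors and from -0.05 to 0.48 in the SS214 tumors. SS tumor 30 had the highest ratio, and SS40 NC replicate 2 (Actb ratio 0.81) and SS40 miR-214 replicate 4 (correlation with its group 0.983) stood apart from the other arrays of their groups. Sox2, a marker of synovial sarcoma, lay at 9.74 ± 0.50 (SD, n = 12) in the SS tumors and 10.74 ± 0.01 (n = 4) in SS64 NC, but at 3.57 ± 0.05 (n = 4), near the floor, in SS40 NC.

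Lin28a was at the floor nearly throughout. Its probe set 1421749_PM_at was above the floor on 1 of the 53 arrays, an SS40 NC array at 3.62, and 1437752_PM_at on 1, an SS tumor at 3.56. No group had a second array above the floor for the same probe set, so Lin28a entered no comparison, and its level is bounded only by the floor. Among 6 markers of pluripotent and germ cells, Pou5f1 and Zfp42 were at the floor on all arrays, Nanog, Ddx4 and Dazl reached at most 3.73, 3.57 and 3.85, and Dppa5a ranged up to 6.23, in an SS214 tumor.

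Hmga2, the chromatin protein among the members with values, was high in every group but the tissue mix. On its representing probe set, 1450780_PM_s_at, the 4 tissue mix arrays read 6.35, 6.44, 6.23 and 6.06. The highest group means were 11.76 ± 0.05 in SS64 miR-214 and 11.70 ± 0.07 in SS64 NC (n = 4 each), whose ranges overlapped. Every other cell or tumor group had a mean between 10.39 and 10.90, with overlapping ranges for most neighbors in the order. The empty-vector eMCs lay entirely above the SS18-SSX1 eMCs, whereas the SS tumors, from 9.52 to 11.80, overlapped every cell group.

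The 4 Hmga2 probe sets did not give 1 pattern. 1422851_PM_at and 1450781_PM_at followed the representing set, with 4.28 and 3.90 in the tissue mix and 8.69 or more in each other group mean. 1446196_PM_at did not: it averaged 5.84 ± 0.89 (n = 12) in the SS tumors, 4.64 ± 0.17 and 4.68 ± 0.21 in SS64 NC and SS64 miR-214, and at most 3.91 in all other groups. The SS tumors were the highest group on this probe set and the SS64 arrays came next, while the tissue mix was at the floor on 4 of 4 arrays. What this probe set measures beside the other 3 was not tested.

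Igf2bp3 split the groups into 2 blocks with a wide gap. On its representing probe set, 1422611_PM_s_at, the means were 7.53 ± 0.17 in SS40 NC, 7.38 ± 0.12 in SS40 miR-214, 7.30 ± 0.09 in SS18-SSX1 eMCs and 6.91 ± 0.18 in empty-vector eMCs (n = 4 each). The other groups lay at 4.17 ± 0.23 in SS64 miR-214, 4.14 ± 0.14 in SS64 NC, 4.05 ± 0.14 in SS214 tumors (n = 13), 4.01 ± 0.15 in SS tumors (n = 12) and 3.91 ± 0.10 in the mix. No array fell between 4.51 and 6.64. Within the upper block the first 3 groups overlapped, and within the lower block each group overlapped its neighbor. The shared probe set 1433732_PM_x_at gave the same blocks, with group means of 7.75 to 8.34 above and 5.25 to 5.47 below.

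Igf2bp1 showed the same blocks on 3 of its 4 probe sets. On 1418761_PM_at, SS40 NC read 6.81, 6.28, 6.86 and 6.74 and the empty-vector eMCs read 5.59, 5.77, 5.69 and 5.73. The SS64 NC arrays read 4.01, 4.02, 4.08 and 4.01, the SS tumors ran from the floor to 3.88 with a median of 3.62, and the mix was at the floor on 4 of 4 arrays. The SS40 arrays were thus highest, the eMCs next, and no array of SS64, tumor or mix reached the eMCs. The representing probe set, 1459825_PM_x_at, ranged less, from a mean of 4.96 ± 0.30 in SS tumors to 6.50 ± 0.24 in SS40 miR-214, with SS64 NC at 5.73 ± 0.11 close below the eMCs at 6.10 ± 0.12.

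**Figure D1:**
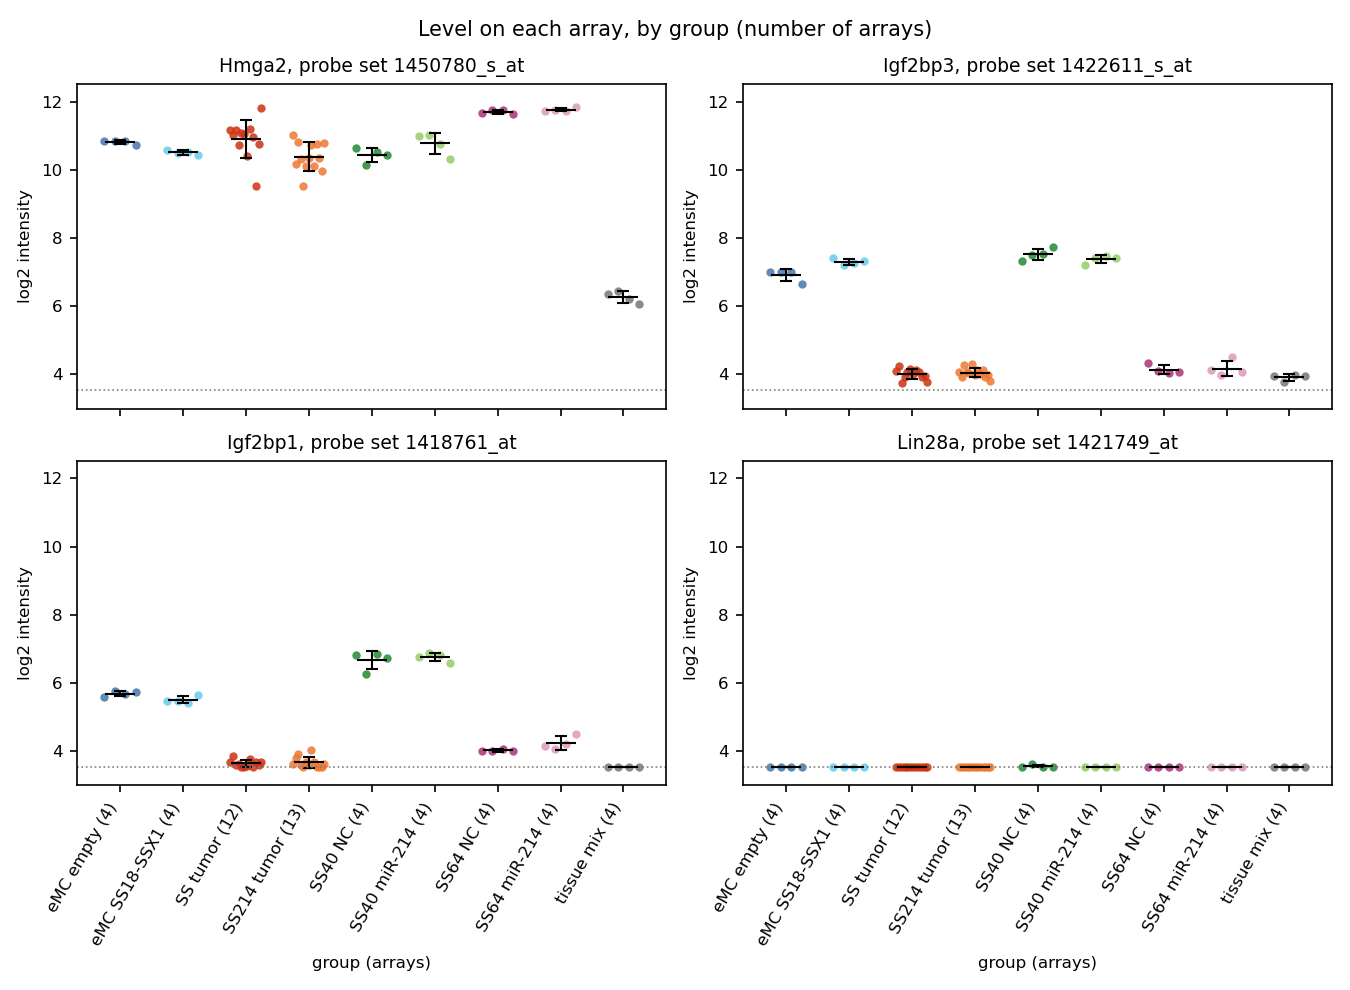
Log2 intensity (vertical axis) of 1 probe set each of Hmga2, Igf2bp3, Igf2bp1 and Lin28a on every array, by group (horizontal axis, number of arrays in brackets). Points are arrays, bars the mean and SD, and the dotted line the floor at 3.55; Igf2bp3 and Igf2bp1 are high in eMCs and SS40 only, Hmga2 is low in the tissue mix only, and Lin28a stays at the floor, while for Igf2bp1 the panel shows 1418761_PM_at in place of its representing set.

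**Figure D2:**
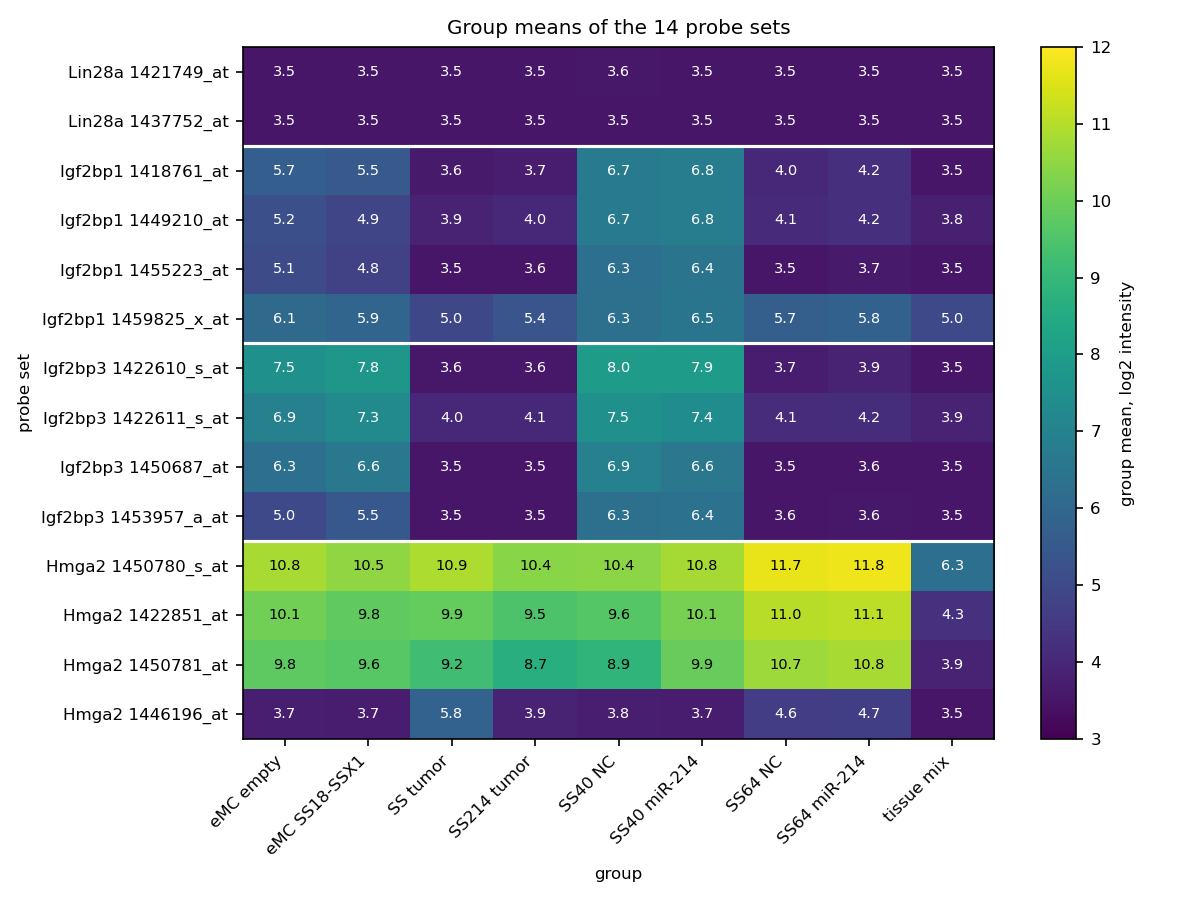
Group means of log2 intensity (color and printed value, to 1 decimal) for the 14 probe sets (rows) in the 9 groups (columns); values printed as 3.5 lie at or near the floor. The 4 Igf2bp3 rows and the upper 3 Igf2bp1 rows share their high and low columns, and the last Hmga2 row, 1446196_PM_at, departs from the other 3 Hmga2 rows.

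How the members differed between the parental cells and normal tissue was asked by comparing the empty-vector eMCs with the tissue mix. All 3 member genes tested were called, each higher in the eMCs, against 28% of all genes called in either direction, and 11 of 12 own probe sets tested were called higher. Hmga2 was 23.3-fold higher (1450780_PM_s_at, log2 difference 4.54, SE 0.07, limma adjusted p = 1.44e-18), with eMC arrays at 10.84, 10.85, 10.84 and 10.72 and no overlap with the mix. Igf2bp3 was 7.97-fold higher (1422611_PM_s_at, 3.00, SE 0.10, adjusted p = 5.41e-14), its eMC arrays at 6.99, 7.00, 6.99 and 6.64 and the mix at 3.95, 3.77, 3.97 and 3.96. Igf2bp1 was 2.16-fold higher on its representing set and at least 4.43-fold higher on 1418761_PM_at, where the mix was at the floor. The exception was Hmga2 1446196_PM_at, which was above the floor in all 4 eMC arrays but differed by 0.20. The methods list liver, lung, kidney, brain and bone marrow among the tissues of the mix. In mix, empty-vector eMCs and SS tumors, 6 neutrophil markers summed to 14.78 to 14.86, 8.67 to 8.86 and 6.9 to 12.18. The sums of 4 cartilage markers were 6.4 to 6.6, 14.03 to 14.07 and 8.87 to 10.08, in the same order. The part of tissue composition in the differences from the mix was not tested.

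The pathway lists gave the setting of these differences. Of 9 tested genes linked to Hmga2, 8 were higher in the eMCs and none lower, with a median difference of 2.89 against 0.11 over all 15636 genes tested; Igf2, a fetal growth factor, was 5.90 higher, Twist1, a mesenchymal transcription factor, 4.04, Plagl1, an imprinted zinc finger gene, 3.37, and Snai2 3.15. Of 20 let-7 target genes tested, 6 were higher and 1 lower (median 0.16), with the cyclin gene Ccnd2 at 2.23, the kinase gene Cdk6 at 1.35, and Mycn at 7.58 on its representing probe set only. Of 23 cell cycle genes, 14 were higher and 1 lower (median 1.08), and of 9 other oncofetal genes 5 were higher, including Dlk1, a fetal Notch-like ligand, at 5.42. Mycn must be read with its other 2 probe sets, of which 1 was called lower and 1 was not called. Over all genes tested, 28% were called in either direction.

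Against the same 4 tissue mix arrays, the SS tumors were higher in Hmga2, while Igf2bp1 and Igf2bp3 were not called. Of the 3 member genes tested against the tissue mix, 1 was called, higher in the tumors, against 25.1% of all genes called, and of 8 own probe sets tested 4 were called, all of Hmga2 and all higher. Hmga2 was 24.8-fold higher on 1450780_PM_s_at (4.63, SE 0.26, limma adjusted p = 3.75e-11), 48.6-fold on 1422851_PM_at, 40.5-fold on 1450781_PM_at, and at least 4.89-fold on 1446196_PM_at. The 12 tumors ran from 9.52 through a median of 11.03 to 11.80 on the representing set, and none overlapped the mix. Igf2bp3 differed by 0.10 (95% confidence interval -0.07 to 0.27, adjusted p = 0.316) and Igf2bp1 by -0.04 (-0.39 to 0.32, adjusted p = 0.864), each with overlapping ranges. On 4 of the 8 probe sets of Igf2bp1 and Igf2bp3 fewer than 4 arrays of tumors and mix together were above the floor, and these were not tested.

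Of the lists, the 9 tested Hmga2-linked genes had 4 higher and 1 lower in the tumors than in the mix (median 0.74, against 0.07 over all 15679 genes tested), led by Twist1 at 5.12, Igf2 at 3.59 and Cdkn2a, a cell cycle inhibitor gene, at 2.77. Of 9 other oncofetal genes, 4 were higher and none lower, including Dlk1 at 6.00 and Tpbg, a trophoblast glycoprotein gene, at 2.29. The 23 cell cycle genes went the other way, with 8 lower and none higher (median -0.60), among them Mki67 at -1.72. Igf2 was represented by 1448152_PM_at, and its second probe set was not called.

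The question of what changed between the parental cells and the established tumors was addressed by SS tumors against empty-vector eMCs. Igf2bp3 and Igf2bp1 fell in the tumors and Hmga2 did not pass the test. Of the 3 member genes tested, 2 were called, both lower, against 23.2% of all genes called; of 12 own probe sets, 8 were lower, all of Igf2bp1 and Igf2bp3, and 1 was higher, 1446196_PM_at of Hmga2. The eMC arrays are those already set against the mix, so the comparisons with eMCs and mix share samples and are not independent of each other.

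Igf2bp3 fell 7.45-fold on 1422611_PM_s_at (log2 difference -2.90, SE 0.10, limma adjusted p = 4.47e-14), from 6.91 ± 0.18 (n = 4) in eMCs to tumors between 3.75 and 4.26 with a median of 4.03. On 1422610_PM_s_at, where 2 of 12 tumors were above the floor, it fell at least 15.2-fold (-3.93 with the other tumors at the floor). On 1450687_PM_at and 1453957_PM_a_at every tumor was at the floor, which gave decreases of at least 6.75-fold and 2.72-fold. The tumors lay below all eMC arrays on each of the 4 probe sets, and the shared set 1433732_PM_x_at was 7.47-fold lower.

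Igf2bp1 fell 2.22-fold on its representing set (1459825_PM_x_at, -1.15, SE 0.15, limma adjusted p = 4.19e-06) and 4.14-fold on 1418761_PM_at (-2.05, SE 0.06, adjusted p = 1.04e-14). On 1449210_PM_at the decrease was 2.52-fold, and on 1455223_PM_at, at the floor in all 12 tumors, it was at least 2.92-fold. No tumor overlapped the eMCs on any of the 4.

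Hmga2 was not called on 3 of its 4 probe sets. On 1450780_PM_s_at the tumors averaged 10.90 ± 0.55 (n = 12) against 10.81 ± 0.06 (n = 4), a difference of 0.09 (95% confidence interval -0.45 to 0.63, limma adjusted p = 0.778), and tumors lay on both sides of the eMC arrays. 1446196_PM_at was 4.26-fold higher in the tumors (2.09, SE 0.42, adjusted p = 0.00029), from 3.6, 3.78, 3.87 and 3.74 in eMCs to tumors between 3.94 and 6.99, all above the eMCs.

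Around the members, 15 of 23 cell cycle genes fell in the tumors and none rose (median -1.98, against -0.03 over all 15625 genes tested), with the mitotic kinase genes Aurkb at -3.29 and Aurka at -3.20. Of 9 Hmga2-linked genes, 6 fell and 1 rose, with Snai2 at -2.41, Igf2 at -2.31 and Cdkn2b at -2.25. Of 13 genes of Igf2bp cargo and partners, 3 fell and 2 rose: Cd44, a surface adhesion receptor, at -2.97 and Igf2 at -2.31 were the largest decreases, and Mapk4 at 1.79 the largest increase. Of 21 let-7 target genes, 3 fell and 1 rose (median 0.11), a share no larger than the 23.2% called over all genes. These were Cdk6 at -2.42, Myc at -2.15 and Fign at -1.30 against Dna2 at 1.80. Of 17 let-7 biogenesis genes, 4 rose and 2 fell, including the Argonaute genes Ago1 at 1.47 and Ago4 at 1.34, and Tent2 at -1.63.

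Markers of other tissues and RNA integrity moved with this comparison. The Gapdh ratio was -0.02 to 0.06 in empty-vector eMCs and 0.04 to 0.07 in the mix, below every SS tumor (0.33 or more). The summed log2 level of 6 skeletal muscle markers was 13.39 to 15.32 in SS tumors against 8.67 to 8.76 in empty-vector eMCs, that of 6 endothelial markers 7.66 to 9.23 against 7.17 to 7.32, and that of 4 cartilage markers 8.87 to 10.08 against 14.03 to 14.07, with every one of these markers above the floor in some array of each group. The part of these measures in the differences of Igf2bp1, Igf2bp3 and Hmga2 was not tested, and in bulk tumors fewer cells of a type cannot be told apart from less RNA per cell.

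The early difference that went with the fusion was taken from eMCs with SS18-SSX1 against eMCs with empty vector. At the 2-fold threshold none of the 3 member genes tested by limma was called, against 3.65% of all genes called. At an unadjusted p under 0.05 there were 2, and 2 by the methods' t-test. Without the fold threshold, 7497 of all 15328 genes tested had a limma adjusted p under 0.05. Hmga2 averaged 10.51 ± 0.07 with SS18-SSX1 (10.59, 10.51, 10.52 and 10.42) and 10.81 ± 0.06 without, a 1.23-fold difference with no overlap (1450780_PM_s_at, -0.30, SE 0.04, adjusted p = 3.91e-06). Igf2bp3 averaged 7.30 ± 0.09 with SS18-SSX1 (7.41, 7.21, 7.27 and 7.32) and 6.91 ± 0.18 without, 1.31-fold higher, again with no overlap (1422611_PM_s_at, 0.40, SE 0.08, adjusted p = 0.00072). Its other 3 own probe sets differed by 0.26 to 0.50 with overlapping arrays, whereas the probe sets shared with D030074P21Rik differed in the other direction, 1433731_PM_at by -0.13 and 1433732_PM_x_at by -0.14 (limma adjusted p = 0.173 and 0.0695). Igf2bp1 differed by -0.16 (95% confidence interval -0.35 to 0.02, adjusted p = 0.153) with overlapping arrays.

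The size of these shifts sets them apart from the tumor difference on the same probe sets. Igf2bp3 was higher in the SS18-SSX1 cells than in the empty-vector cells and lower in the tumors, which carry the same fusion; the fit had no term comparing the SS18-SSX1 cells with the tumors directly, but every SS18-SSX1 array (7.21 or more) lay above every SS tumor (4.26 or less). Of the lists, 2 of 9 Hmga2-linked genes fell, the cell cycle inhibitor genes Cdkn2a at -1.90 and Cdkn2b at -1.55, and the other 7 were not called. Of 21 let-7 target genes, 1 fell, Mycn at -7.17 on 1425923_PM_at, from 12.60 ± 0.03 to 5.43 ± 0.16 (n = 4 each), while its other 2 probe sets were not called. None of the 23 cell cycle genes, 13 cargo genes or 17 let-7 biogenesis genes was called by limma.

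Markers of other cell types moved with the same groups. Summed over 6 markers each, neutrophil genes read 8.67 to 8.86 in empty-vector eMCs and 12.02 to 12.05 with SS18-SSX1, endothelial genes 7.17 to 7.32 and 9.71 to 9.75, and skeletal muscle genes 8.67 to 8.76 and 10.68 to 10.78. Over 8 macrophage genes the sums were 9.39 to 9.49 and 10.02 to 10.12, and over 4 cartilage genes 14.03 to 14.07 and 13.35 to 13.40. All of these markers were above the floor in some array of each group. The ratio of 3′ to 5′ control probe sets also separated the groups, at -0.02 to 0.06 without and -0.17 to -0.12 with SS18-SSX1 for Gapdh, and 0.38 to 0.46 and 0.24 to 0.27 for Actb. The part of these measures in the shifts of Hmga2 and Igf2bp3 was not tested.

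SS214 tumors were compared with SS tumors to see what miR-214 in the vector went with. SS tumors 18, 19 and 23 stayed in the SS group, so the contrast is between vectors and not between miR-214 levels. No member gene was called at the 2-fold threshold by limma, against 2.01% of all genes called. An unadjusted p under 0.05 was found for 2, and the methods' t-test gave 2. Without the fold threshold, 6237 of all 15644 genes tested had a limma adjusted p under 0.05. Of 9 own probe sets tested, 1 was called, Hmga2 1446196_PM_at, which was 3.81-fold lower in the SS214 tumors (-1.93, SE 0.24, adjusted p = 2.43e-06). The SS tumors ran from 3.94 through a median of 6.05 to 6.99 and the SS214 tumors from 3.62 through 3.87 to 4.47. The groups overlapped only through SS tumor 30, at 3.94, since the next SS tumor read 4.75.

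The other 3 Hmga2 probe sets differed in the same direction by less and were not called. The representing set averaged 10.90 ± 0.55 (n = 12) in SS tumors and 10.39 ± 0.42 (n = 13) in SS214 tumors, 1.43-fold lower (-0.51, 95% confidence interval -0.89 to -0.13, limma adjusted p = 0.0291), with ranges of 9.52 to 11.80 and 9.53 to 11.03. 1422851_PM_at differed by -0.41 and 1450781_PM_at by -0.56, with adjusted p of 0.129 and 0.0927. The ranges of the groups overlapped almost throughout on all 3.

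Igf2bp1 and Igf2bp3 were low in both tumor groups, and no probe set of either was called. Igf2bp3 differed by 0.04 on 1422611_PM_s_at (95% confidence interval -0.08 to 0.16, limma adjusted p = 0.581). Igf2bp1 was 1.33-fold higher in SS214 tumors on its representing set (0.41, SE 0.12, adjusted p = 0.00808), whereas 1418761_PM_at differed by 0.03 (adjusted p = 0.652), so its probe sets did not agree on a shift.

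RNA integrity moved with this comparison. The Gapdh ratio averaged 0.85 ± 0.37 in SS tumors and 0.06 ± 0.14 in SS214 tumors. With the ratio as a covariate, 1446196_PM_at differed by -2.08 (limma adjusted p = 0.0108), the representing set of Hmga2 by -0.79 (adjusted p = 0.147) and that of Igf2bp1 by 0.05 (adjusted p = 0.907). Without SS tumor 30, which had the highest ratio and the lowest Hmga2, the values were -2.10, -0.64 and 0.38. Neutrophil markers, 6 of 6 measured and above the floor in both groups, summed to 6.90 to 12.18 in SS tumors (median 8.24) and 8.21 to 14.06 in SS214 tumors (median 12.38), and their part was not tested.

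**Figure D3:**
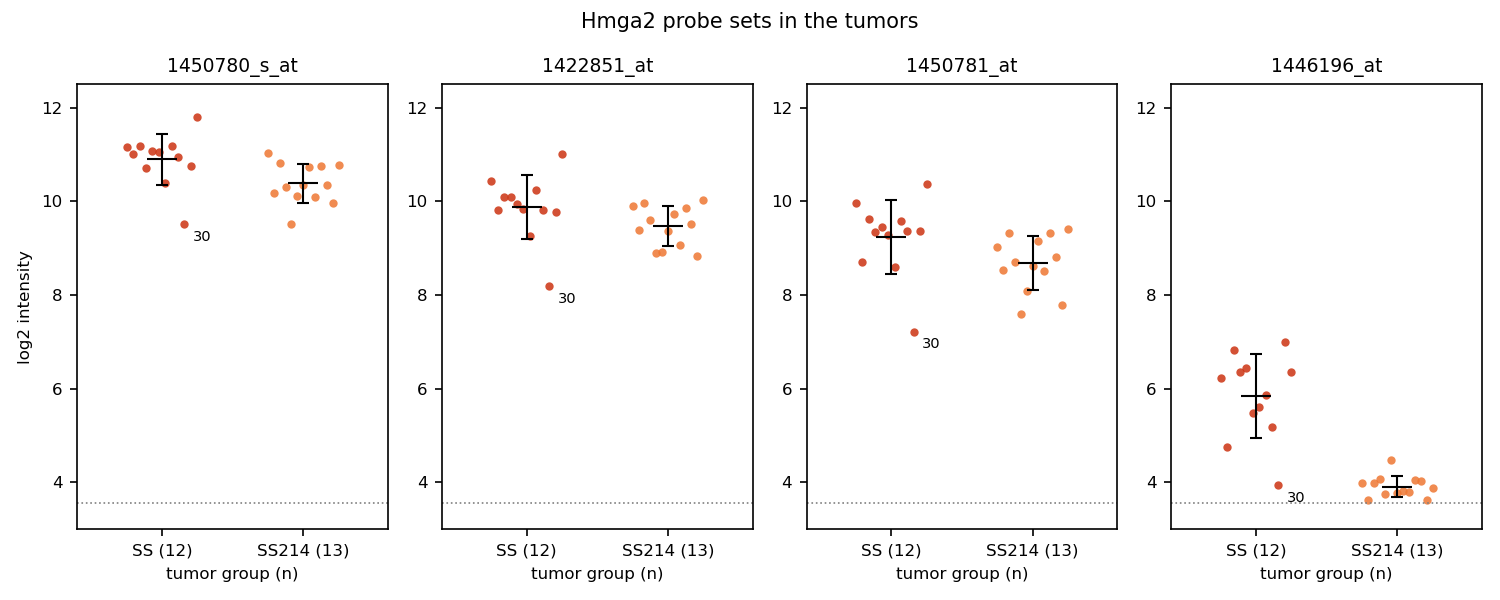
Log2 intensity (vertical axis) of the 4 Hmga2 probe sets in 12 SS and 13 SS214 tumors (horizontal axis); points are tumors, bars the mean and SD, the dotted line the floor, and SS tumor 30 is marked. The groups overlap on the first 3 probe sets and, but for tumor 30, separate on 1446196_PM_at.

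Among the lists, 6 of 23 cell cycle genes rose in SS214 tumors and none fell (median 0.63, against 0.04 over all 15644 genes tested), led by Aurka at 1.33. Of 17 let-7 biogenesis genes 1 fell, Ago2, the slicing Argonaute, at -1.15 (limma adjusted p = 0.00274), lower on all 4 of its probe sets. Of 21 let-7 target genes 2 fell, Mycn at -1.29, on 1 of 3 probe sets, and the growth factor receptor gene Igf1r at -1.29, on 2 of 4. Of 9 other HMG chromatin genes, Hmgn5 fell (-1.06). No cargo or Hmga2-linked gene was called.

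The lines SS40 and SS64 differed in all 3 detected members when their NC arrays were compared. At gene level 2 of 3 were called, Igf2bp3 higher and Hmga2 lower in SS40, against 12.4% of all genes called; of 12 own probe sets, 7 were higher and 3 lower. Igf2bp3 was 10.5-fold higher in SS40 (1422611_PM_s_at, 3.39, SE 0.11, limma adjusted p = 8.88e-10), at 7.32, 7.51, 7.54 and 7.73 against 4.34, 4.09, 4.05 and 4.06, and 19.6-fold higher on 1422610_PM_s_at. Its 4 probe sets were all called, with no overlap between the lines.

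Igf2bp1 was 6.25-fold higher in SS40 on 1418761_PM_at (2.65, SE 0.13, limma adjusted p = 2.15e-08), 6.13-fold on 1449210_PM_at, and at least 6.62-fold on 1455223_PM_at, where SS64 NC was at the floor. On the representing set the difference was 1.51-fold (0.60, adjusted p = 0.00106), which did not reach 2-fold, although the arrays did not overlap. Hmga2 was 2.41-fold lower in SS40 (1450780_PM_s_at, -1.27, SE 0.09, adjusted p = 7.34e-07), at 10.65, 10.14, 10.53 and 10.42 against 11.67, 11.75, 11.76 and 11.62. 1422851_PM_at and 1450781_PM_at were 2.65-fold and 3.5-fold lower, 1446196_PM_at was 1.83-fold lower and not called, and no array overlapped on any of the 4.

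The lists differed less evenly between the lines. None of 23 cell cycle genes and none of 17 let-7 biogenesis genes was called by limma (medians 0.13 and 0.08, against 0.02 over all 15474 genes tested). Of 21 let-7 target genes 2 were higher in SS40, Mycn at 1.75 and Ccnd2 at 1.22, and 3 lower, with Fign at -3.46 and Igf1r at -1.48; for Mycn a second probe set was called in the opposite direction. Of 9 Hmga2-linked genes 3 were higher, Twist1 at 3.06, Snai2 at 1.15 and Igf2 at 1.03, and Plagl1 was lower at -1.09. Of 13 cargo genes, Igf2 alone was called. Each is a single line, so the line and any other difference between the cultures cannot be told apart.

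Set against the SS tumors, the lines again parted in the Igf2bp genes. In SS40 NC 2 of 3 member genes were called, both higher than in tumors, against 27.6% of all genes called, and of 12 own probe sets 8 were higher and 1 lower. Igf2bp3 was 11.4-fold higher (1422611_PM_s_at, 3.52, SE 0.10, limma adjusted p = 4.71e-15), Igf2bp1 2.59-fold on its representing set and 8.15-fold on 1418761_PM_at. Hmga2 differed by -0.47 (95% confidence interval -1.02 to 0.08, adjusted p = 0.123), and by -0.59 without SS tumor 30 (adjusted p = 0.00656), still under 2-fold, while 1446196_PM_at was 4.19-fold lower.

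In SS64 NC no member gene was called against tumors by limma at the 2-fold threshold, against 26% of all genes called. An unadjusted p under 0.05 was found for 2, and the methods' t-test gave 2. Without the fold threshold, 11055 of all 15645 genes tested had a limma adjusted p under 0.05. Of 9 own probe sets tested 2 were higher and 1 lower, all of Hmga2. Hmga2 was 1.74-fold higher on the representing set (0.80, SE 0.26, adjusted p = 0.0105), although 1 tumor, at 11.80, lay above all SS64 NC arrays, 2.25-fold on 1422851_PM_at and 2.74-fold on 1450781_PM_at, and 2.29-fold lower on 1446196_PM_at. Igf2bp3 differed by 0.13 (95% confidence interval -0.05 to 0.30, adjusted p = 0.191). Igf2bp1 was 1.71-fold higher on its representing set, with no overlap, and 1.30-fold higher on 1418761_PM_at.

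Both lines were grown without the host cells of a tumor, and both comparisons share the 12 tumors. All 23 cell cycle genes tested were higher in each line, with medians of 2.77 in SS40 and 2.47 in SS64, and Aurka at 4.35 and 4.03. Among the cargo genes, Cd44 was 4.31 and 4.15 higher and Igf2 3.67 lower in SS40 and 4.69 lower in SS64. Of 9 Hmga2-linked genes, 4 were higher and 2 lower in SS40 (median 0.47), and 3 were higher and 3 lower in SS64 (median 0.46); Cdkn2a differed by 4.62 and 3.79, and Plagl1 by -2.58 and -1.49. Of 21 let-7 target genes tested in SS40, 2 were higher, Myc at 2.88 and Cdk6 at 2.18, and 4 lower, including Mycn at -5.05 and the insulin receptor gene Insr at -1.92 (median -0.23). Of 20 tested in SS64, 4 were higher, including Fign at 3.41 and Myc at 2.13 (median -0.11). The 3 lower were Mycn at -6.80, Ccnd2 at -2.17 and Insr at -1.64. Over all genes tested, 27.6% were called in SS40 and 26% in SS64. Mycn is given here for both lines by its representing probe set only, with which its other probe sets disagreed in comparisons above. Skeletal muscle markers, 6 of 6 measured, summed to 7.15 to 7.61 in SS40 NC and 7.38 to 7.55 in SS64 NC, against 13.39 to 15.32 in the tumors. Each marker was above the floor on some array of each group, but in the lines Myh4 and Myh1 reached the floor. The Gapdh ratio was -0.20 to 0.19 in SS40 NC and -0.25 to -0.10 in SS64 NC, below every SS tumor (0.33 or more). The part of both measures was not tested.

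Introduction of miR-214 into the lines moved no member past the threshold. In SS40 none of 3 member genes and none of 12 own probe sets was called by limma, against 0.201% of all genes called; at an unadjusted p under 0.05 there were 0 genes and 2 probe sets, and the methods' t-test gave 0. In SS64 none of 3 genes and none of 9 probe sets was called, against 0.24% of all genes; the counts at an unadjusted p under 0.05 were 0 and 1, and the methods' t-test gave 0. For the difference between the lines in the miR-214 effect, none of 3 genes was called by limma, against 0.24% of all genes, with 0 genes and 1 probe set at an unadjusted p under 0.05.

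In SS40, Hmga2 read 10.99, 11.01, 10.77 and 10.33 with miR-214 against 10.65, 10.14, 10.53 and 10.42, a difference of 0.34 with overlapping arrays (95% confidence interval -0.02 to 0.70, limma adjusted p = 0.563). The widest member difference was that of Hmga2 1450781_PM_at, 1.01 (0.15 to 1.87, adjusted p = 0.435), which came to 0.59 without SS40 NC replicate 2, the array at 7.63 beside 8.97 to 9.76. Igf2bp3 differed by -0.15 (-0.40 to 0.11) and Igf2bp1 by 0.18 (-0.15 to 0.51) on their representing sets.

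In SS64, Hmga2 read 11.73, 11.76, 11.73 and 11.83 with miR-214 against 11.67, 11.75, 11.76 and 11.62, a difference of 0.06 (95% confidence interval -0.02 to 0.14, limma adjusted p = 0.447). Igf2bp3 differed by 0.04 (-0.21 to 0.29) and Igf2bp1 by 0.08 (-0.15 to 0.31). Igf2bp1 1418761_PM_at was a probe set whose arrays just failed to overlap, at 4.16, 4.08, 4.22 and 4.52 with miR-214 and 4.01, 4.02, 4.08 and 4.01 without (0.22, adjusted p = 0.213). Between the lines the miR-214 effect on Hmga2 differed by 0.28 (-0.09 to 0.65, adjusted p = 0.751). These intervals, for the representing sets in SS40 and SS64, exclude a 2-fold change, but the absence of a call does not show that the levels were equal.

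**Figure D4:**
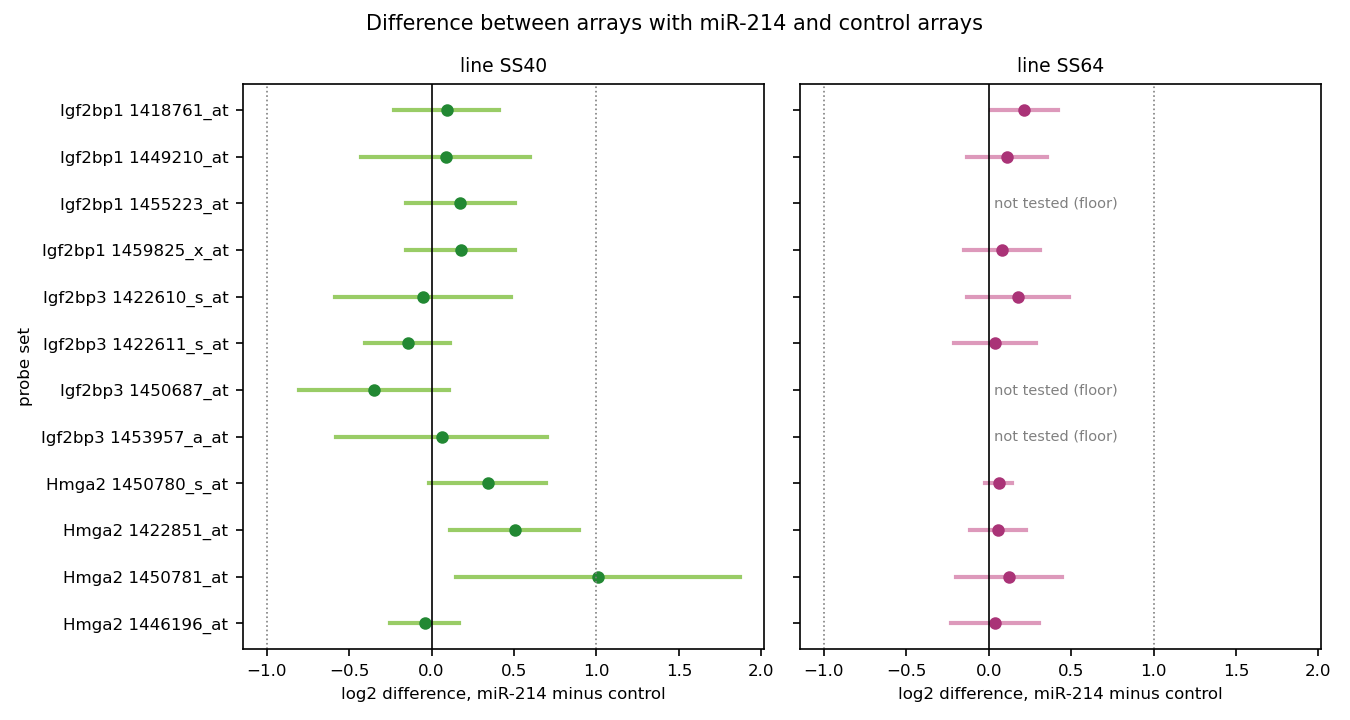
Log2 difference between arrays with miR-214 and control arrays (horizontal axis) for the Igf2bp1, Igf2bp3 and Hmga2 probe sets (vertical axis) in SS40 (left) and SS64 (right); points are differences, bars 95% confidence intervals, dotted lines a 2-fold change, and n = 4 arrays a group. Most bars cross 0, and only Hmga2 1450781_PM_at in SS40 reaches beyond 2-fold.

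In these same comparisons 1 of 21 let-7 target genes fell in each line, the small GTPase gene Nras, at -1.42 in SS40 (limma adjusted p = 0.000642) and -1.40 in SS64 (adjusted p = 1.47e-06), with 2 of its 3 probe sets called in each. The Nras arrays read 9.00 to 9.23 in SS40 NC and 7.63 to 7.95 with miR-214, and 9.78 to 10.06 and 8.32 to 8.66 in SS64, with no overlap in either line. No gene of the other lists was called in either line.

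The genes whose levels ran most like each member over the 53 arrays are given as a description, since arrays of a group share their source and the correlations largely order groups. Among 16372 other genes, those closest to Igf2bp3 were the cytokine genes Tnfsf11 (Pearson r = 0.981), Cxcl5 (0.980) and Cxcl1 (0.972). Closest to Hmga2 were Rab34 (0.916), Tpbg (0.913) and Nab2 (0.883), and closest to Igf2bp1, by its representing set, were 2810025M15Rik (0.908), Nudt21 (0.900) and Ergic1 (0.900). Tnfsf11, like Igf2bp3, averaged 7.38 in SS40 NC and 6.66 in empty-vector eMCs, and 3.55 to 3.63 in SS64, tumors and mix.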

How the data were processed

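Total RNA of 53 samples labelled as mouse had been hybridized to a 1-color Affymetrix array of perfect-match probes. The authors deposited 1 table of linear intensity values per probe set, with array medians of 22.5 to 26.9 and array means of 195 to 222. The submitters' notes name MAS5 and the methods GeneSpring. Neither the background step nor a scaling target is given in the sources used here. Columns were matched to samples by their sample identifiers, and groups were read from the sample titles. Gene symbols came from the platform annotation, updated by gene ID for 28689 of 28898 probe sets with 1 symbol; 551 had several symbols and 15692 none.

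Intensities below 11.7, the median over arrays of the 20th percentile, were set to that value (the floor) before taking log2. Within each comparison, probe sets above the floor on at least 4 arrays were fitted with limma (3.58.1, R 4.3.3; lmFit, eBayes with an intensity trend), using only the groups compared and leaving out 104 control probe sets. The Benjamini-Hochberg adjustment covered all probe sets tested in a comparison. Calls needed adjusted p under 0.05 and over 2-fold, and genes were counted by their probe set of highest mean. The code was tested on simulated data. The number of arrays limits the precision. Members and pathway lists were chosen with earlier results of these data known. The text names all members, up to 4 called genes of a list in a comparison, and the 3 most correlated genes. Same-numbered SS64 arrays deviated together (r 0.221 to 0.346). However, miR-214 replicate 1 correlated more with NC replicate 2 (0.376), and replicate 3 more with NC replicate 4 (0.381). The numbers are thus not shown to pair these arrays, and the main fit did not pair them. Alternatives were other scaling, floors, filters, gene summaries, a fit of all arrays, the methods' t-test, a replicate block, left-out arrays, and, added after the data were seen, the Gapdh ratio and leaving out SS tumor 30.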

Additional observations from a re-analysis of the deposited data

Results flagged for a closer look

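Across 83 sets of 4 arrays, 1 for each probe set and group with all arrays above the floor, 12 (14.46%) held an array whose gap to its nearest neighbor took up more of the group's range than Dixon's 95% critical value allows, where chance gives about 1 in 20. SS40 miR-214 replicate 4 was the lowest of its group on 4 probe sets, Igf2bp3 1422610_PM_s_at (7.28 against 8.08 to 8.22, gap ratio 0.85), the shared 1433732_PM_x_at (6.50 against 8.09 to 8.29, 0.889), Igf2bp1 1455223_PM_at (6.06 against 6.53 to 6.62, 0.838) and Igf2bp1 1459825_PM_x_at (6.15 against 6.59 to 6.66, 0.861). SS40 NC replicate 2 was low on Igf2bp3 1422610_PM_s_at (7.44 against 8.14 to 8.21, 0.906). Replicate 4 of the empty-vector eMCs was low on Igf2bp3 1422611_PM_s_at (6.64 against 6.99 to 7.00, 0.959) and on Hmga2 1450780_PM_s_at (10.72 against 10.84 to 10.85, 0.87). Replicate 4 of the SS18-SSX1 eMCs was low on Hmga2 1450781_PM_at (9.37 against 9.71 to 9.77, 0.835).

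The remaining 4 lay in groups of little spread or low level. SS64 NC replicate 3 was high on Igf2bp1 1418761_PM_at (4.08 against 4.01 to 4.02, 0.855), SS64 NC replicate 1 was high on Igf2bp3 1422611_PM_s_at (4.34 against 4.05 to 4.09, 0.842), tissue mix replicate 2 was low on the same probe set (3.77 against 3.95 to 3.97, 0.874), and tissue mix replicate 1 was high on Igf2bp1 1459825_PM_x_at (5.5 against 4.78 to 4.88, 0.854).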

How the results depend on the processing

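Of the counts of member genes called, recomputed under the alternatives, 176 stayed within 1.5 times the reported count and 3 did not: with no fold threshold the count was 2 in place of 0 for the eMCs with and without SS18-SSX1, for SS214 against SS tumors and for SS64 NC against SS tumors, and it concerned Hmga2 with Igf2bp3 in the first and Hmga2 with Igf2bp1 in the other 2. Over all genes tested, 7497 of 15328, 6237 of 15644 and 11055 of 15645 had a limma adjusted p under 0.05 in these 3 comparisons, in that order. None of the member differences changed sign in a way that turned a call. Leaving out each array of a group of 4 in turn gave counts equal to those reported. The mean over the probe sets of a gene also called Igf2bp1 in SS40 against SS64 (2.15). With the floor at the 40th percentile (17.8), Igf2bp1 1455223_PM_at and Igf2bp3 1453957_PM_a_at dropped below 2-fold in eMCs against mix (Igf2bp1 0.94, Igf2bp3 0.84) and in tumors against eMCs (-0.94 and -0.84). Quantile scaling moved the median of all genes by less than 0.1. With a replicate block the count of member genes called was 0 in the eMC comparison, as without it. It was also 0 in both miR-214 comparisons and in their difference, as without the block, and the block changed no other call. Same-numbered arrays correlated at 0.011 to 0.153 in eMCs and -0.281 to 0.464 in SS40, and there too the numbers show no pairing. The methods' t-test could not be run for the difference between lines. Signal near the floor limits Lin28a everywhere and Igf2bp1 and Igf2bp3 in tumors, SS64 and mix.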
